A study of Mus musculus with 16 samples.

Results

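The effect of a high-fat diet on the liver transcripts of wild-type mice was read from 8 of the 16 arrays of the study, 4 from wild-type mice on a control diet and 4 from wild-type mice on a high-fat diet. The arrays were chosen by their genotype and diet labels alone, and every gene with 1 symbol on the array was kept, which gave 19938 genes. The study crossed diet with a null allele of Gli2, which encodes a transcriptional effector of hedgehog signalling, so that the liver's response to fat could be set against a reduced dose of that pathway. Gli2 heterozygotes on the same 2 diets make up the other 8 arrays, and they are used here only for comparison.

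All mice were adults, each diet lasted 12 weeks, and 1 Affymetrix MoGene 1.0 ST array was hybridised per liver. The wild-type animals carry the genotype label Gli1_WT, while the description of the series speaks of Gli2 only, and they are treated here as wild type. The labels state no strain, exact age, sex or diet composition. Xist, the RNA of X inactivation, read 12.6 to 12.9 on the 8 arrays, and the Y-linked gene Eif2s3y read 4.43 to 4.6. Levels are log2 values, so a difference of 1 is a doubling. Arrays are called control 1 to 4 and high-fat 1 to 4 in the order of the records, a numbering that pairs no animals. The titles of control 1 and high-fat 2 share a number, 46, whose meaning is not stated. Control 2 and 4 also share one, 42, and high-fat 3 and 4 share 30, so whether the 4 mice of a group are independent of each other cannot be told from the labels.

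The liver stores dietary fat as triglyceride in lipid droplets, makes fatty acids from sugar by de novo lipogenesis, and exports lipid in lipoproteins. Genes of de novo lipogenesis are driven by insulin through the factors Srebf1 and Mlxipl, and dietary fat, above all polyunsaturated fat, is known to restrain them. Long exposure to fat can also bring hepatocyte injury, an acute phase response and an influx of leukocytes. Each of these programmes was covered by a list of genes, and 41 lists with 937 memberships were measured. The 14 hepatocyte markers were bright on all arrays, with a mean level of 13.26 to 13.36. The albumin gene Alb read 13.89 to 14.04.

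The arrays resembled each other closely, with correlations across genes of 0.992 to 0.997 between any pair of the 8. High-fat 4 stood apart on the first principal component, which held 32.6% of the variance, at 20.7 against -12.4 to 4.74 for the other 7. The second component held 18.6%, and there the 4 control arrays lay at 2.27 to 10.3, high-fat 1 to 3 at -11.1 to -7.52 and high-fat 4 at 4.28. Control 3 read closest to the high-fat arrays for many of the genes described below. Of the genes named below, 21 that were not called with all 8 arrays were called without control 3, and 0 without any other single array. Where control 3 lay closest to the high-fat arrays, leaving it out widens the difference by construction. The array was singled out by these same values, so calls made without it are no separate support. The difference between diets was small for most genes, with 90% of them between -0.158 and 0.184 and a median of -0.0139. It exceeded 1 in size for 10 genes and 0.5 for 78. Its median was -0.039 over the genes dimmer than the median gene and 0.0237 over the brighter ones. The small medians of lists of dim or of bright genes are to be read beside these values.

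Of the 19938 genes, 5 rose and 1 fell on the high-fat diet (limma, Benjamini-Hochberg adjusted p under 0.05), or 0.0251% and 0.00502% of all genes tested. The gene that fell is Lepr, which encodes the receptor for leptin, the hormone that adipose tissue releases in proportion to its fat stores. The genes that rose are Amt, of the mitochondrial glycine cleavage system; Aox3, a molybdenum-containing aldehyde oxidase of the liver; Rtn4ip1 and Mto1, both of mitochondria; and Serpinb1a, an inhibitor of neutrophil proteases. At an unadjusted p under 0.05 there were 1252 higher genes (6.28%) and 1345 lower ones (6.75%). Centring each array on its median turned this split to 1838 higher and 794 lower, with a median difference of 0.0101. The 4 high-fat arrays lay wholly above the 4 control arrays for 699 genes (3.51%) and wholly below them for 996 (5%).

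Lepr read 10.55, 10.39, 10.69 and 10.47 in control 1 to 4, and 9.18, 8.73, 8.60 and 9.11 in high-fat 1 to 4. The groups were far apart, with a gap of 1.22 between the lowest control and the highest high-fat array. Its level fell by 1.62 (SE 0.12, adjusted p = 0.00138), a 3.08-fold change, from 10.52 ± 0.13 (SD, n = 4) to 8.90 ± 0.28. Lepr was called with any 1 of the 8 arrays left out, at adjusted p of 0.0163 or less. It was not called when all 16 arrays shared 1 estimate of the spread (adjusted p = 0.205). In heterozygotes the same difference was -2.20 (SE 0.39), which did not pass with their 8 arrays fitted alone (adjusted p = 0.109).

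Amt encodes the aminomethyltransferase that passes the one-carbon unit of glycine to folate. It read 10.27, 10.36, 10.23 and 10.35 in the control arrays and 10.76, 10.84, 10.78 and 10.78 in the high-fat arrays. The spread within each group was small, and the gap between groups was 0.40. The level rose by 0.49 (SE 0.05, adjusted p = 0.0134), or 1.40-fold. Leaving out single arrays kept the call in 3 of 8 fits, with adjusted p up to 0.0836 and a difference of 0.46 to 0.51. The heterozygotes gave 0.26 (SE 0.10).

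Rtn4ip1 encodes a mitochondrial oxidoreductase needed for coenzyme Q synthesis. It read 10.26, 10.29, 10.31 and 10.37 on the control arrays against 10.75, 10.87, 10.72 and 10.72 on the high-fat arrays, a rise of 0.46 (SE 0.05, adjusted p = 0.0281). Mto1, which modifies mitochondrial transfer RNA, read 8.90 to 9.08 on the 4 control arrays and 9.32 to 9.41 on the 4 high-fat arrays, a rise of 0.39 (SE 0.05, adjusted p = 0.0493). For both genes every high-fat array lay above every control array. Aox3 read 11.72, 11.87, 11.76 and 11.79 against 12.18, 12.19, 12.10 and 12.16, a rise of 0.37 (SE 0.05, adjusted p = 0.0493). Serpinb1a spread more, at 8.72, 8.60, 8.47 and 8.27 against 9.19, 9.19, 9.48 and 9.45. It had the largest rise of the 5, 0.81 (SE 0.10, adjusted p = 0.0443), or 1.76-fold. Each of these 4 genes was called in 1 of the 8 fits with an array left out, that without control 3, with adjusted p up to 0.203. After a repeated quantile normalization none of the 5 higher genes was called, with adjusted p of 0.0711 to 0.0882, and none in the fit of all 16 arrays. Heterozygotes had differences of the same sign, 0.47 for Rtn4ip1, 0.46 for Mto1, 0.26 for Aox3 and 1.29 for Serpinb1a.

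**Figure D1:**
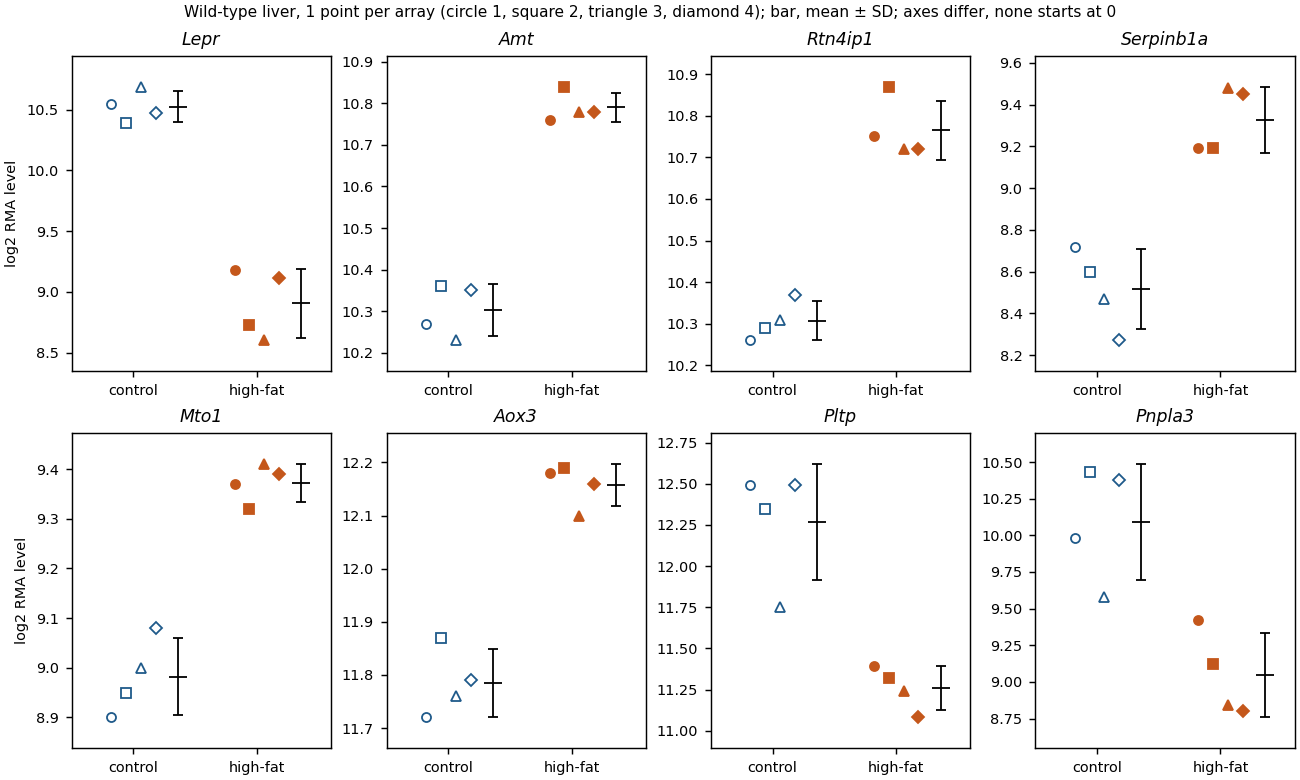
Log2 RMA level (vertical axes, which differ and do not start at 0) of 8 genes on the 4 control (open) and 4 high-fat (filled) wild-type arrays, with the mean ± SD of each group as a bar. Lepr, Pltp and Pnpla3 lie lower and the other 5 genes higher on all 4 high-fat arrays, and control 3 (open triangle) is the lowest control array for Pltp and Pnpla3.

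Genes next in rank, taken by size and p among those whose arrays did not overlap, did not pass the test and are given by their values. Pltp, the phospholipid transfer protein that moves phospholipid between lipoproteins, read 12.49, 12.35, 11.75 and 12.49 on the control arrays against 11.39, 11.32, 11.24 and 11.08 on the high-fat arrays. Control 3 lay between the other control arrays and the high-fat arrays. The difference was -1.01 (SE 0.15, adjusted p = 0.0657), and without control 3 it was -1.19 (adjusted p = 0.000784). Leaving out that array gave 27 higher and 28 lower calls over all genes, against 5 and 1 with all 8 arrays. Other lower genes with arrays that did not overlap were the creatine transporter gene Slc6a8 (-0.32, SE 0.05), the actin-binding protein gene Coro2a (-0.33, SE 0.05), the ubiquitin ligase gene Rnf145 (-0.55, SE 0.09), the carbonic anhydrase gene Car2 (-0.52, SE 0.09), the GABA receptor gene Gabbr2 (-0.52, SE 0.09), Acpp (-0.86, SE 0.15), Reep5 (-0.28, SE 0.05) and Serpina7, the thyroxine-binding globulin (-1.11, SE 0.21). Of these, Slc6a8 and Coro2a had adjusted p of 0.0657 and 0.0644, and the rest 0.104 to 0.139. Without control 3 all of them but Reep5 and Serpina7 were called, at adjusted p of 0.0116 for Acpp to 0.0444 for Slc6a8.

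On the higher side the next genes were Tlcd2 (0.56, SE 0.08, adjusted p = 0.0614), the glutamate receptor gene Grid1 (0.51, SE 0.07, adjusted p = 0.0657) and the glycosyltransferase gene Ugt3a1 (0.54, SE 0.08, adjusted p = 0.0657). Letm1, of the inner mitochondrial membrane (0.39, SE 0.06), the mitochondrial protease gene Oma1 (0.28, SE 0.04), Nt5dc1 (0.32, SE 0.05) and Gpr12 (0.40, SE 0.06) followed at adjusted p of 0.0716 to 0.0844. The arrays of the diets did not overlap for any of these 7 genes. Without control 3, Grid1 and Ugt3a1 (adjusted p = 0.0086 each) and Tlcd2 (adjusted p = 0.0196) were called. Among genes with large differences, the ileal-type bile acid transporter gene Slc10a2 read 0.80 higher (SE 0.14) and the interferon-inducible GTPase gene Gbp11 0.88 higher (SE 0.18). Cyp2c39, a cytochrome P450, had the largest difference, 1.37 (SE 0.51, adjusted p = 0.309). It read 10.48, 10.32, 10.87 and 9.81 on the control arrays against 12.73, 12.94, 10.49 and 10.80 on the high-fat arrays. Only high-fat 1 and 2 lay above the controls, so the difference lies in 2 of the 4 animals. The acetylcholine receptor gene Chrna4 (-1.34, SE 0.29) overlapped because of control 3 at 9.57, and the glutamate receptor gene Gria3 (-1.04, SE 0.24) did not overlap. Both were called without control 3, with differences of -1.65 for Chrna4 (adjusted p = 0.0186) and -1.27 for Gria3 (adjusted p = 0.0301).

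Enzymes of de novo lipogenesis were lower in value on the high-fat diet, though no member of the list passed the test. Of 28 measured members 23 were lower, with a median of -0.18 against -0.0139 for all genes, and 11 were lower at an unadjusted p under 0.05 while 0 were higher. That is 39.3% of the list, beside 6.75% of all genes. The count of 11 ranged from 7 without control 2 to 14 without control 3, and the median from -0.24 without high-fat 1 to -0.11 without high-fat 4.

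The first step of fatty acid synthesis is the carboxylation of acetyl-CoA, and both carboxylase genes were lower in value. Acacb read 11.73, 11.71, 11.22 and 11.66 on the control arrays against 11.11, 10.91, 11.18 and 11.02 on the high-fat arrays (-0.53, SE 0.11, adjusted p = 0.143). Acaca read 12.12, 11.87, 11.36 and 11.78 against 11.39, 11.16, 11.10 and 11.22 (-0.56, SE 0.14, adjusted p = 0.182). Control 3 was the lowest control array for both, and without it both were called (adjusted p = 0.00884 for Acacb and 0.0221 for Acaca). The elongase gene Elovl6 read 12.92, 12.67, 12.39 and 12.68 against 12.44, 11.99, 12.09 and 12.07 (-0.52, SE 0.12). Scd1, the desaturase that makes oleate, differed by -0.20 (SE 0.06) with arrays that did not overlap, and the fatty acid synthase gene Fasn by -0.43 (SE 0.19). The 2 transcription factors that drive these enzymes were not lower to the same degree. Srebf1 differed by 0.11 (SE 0.14) and Mlxipl by -0.02 (SE 0.06). Genes of the last steps of triglyceride synthesis lay near 0, with Dgat2 at 0.03 (SE 0.06).

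Pnpla3 encodes a lipid droplet protein whose transcript is known to follow lipogenic signals. It read 9.98, 10.43, 9.58 and 10.38 on the control arrays against 9.42, 9.12, 8.84 and 8.80 on the high-fat arrays. Each high-fat array was below each control array, with control 3 only 0.16 above high-fat 1. The difference was -1.05 (SE 0.19, adjusted p = 0.118), or 2.07-fold, and without control 3 it was -1.22 (adjusted p = 0.0196). The heterozygotes gave -0.96 (SE 0.22).

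**Figure D2:**
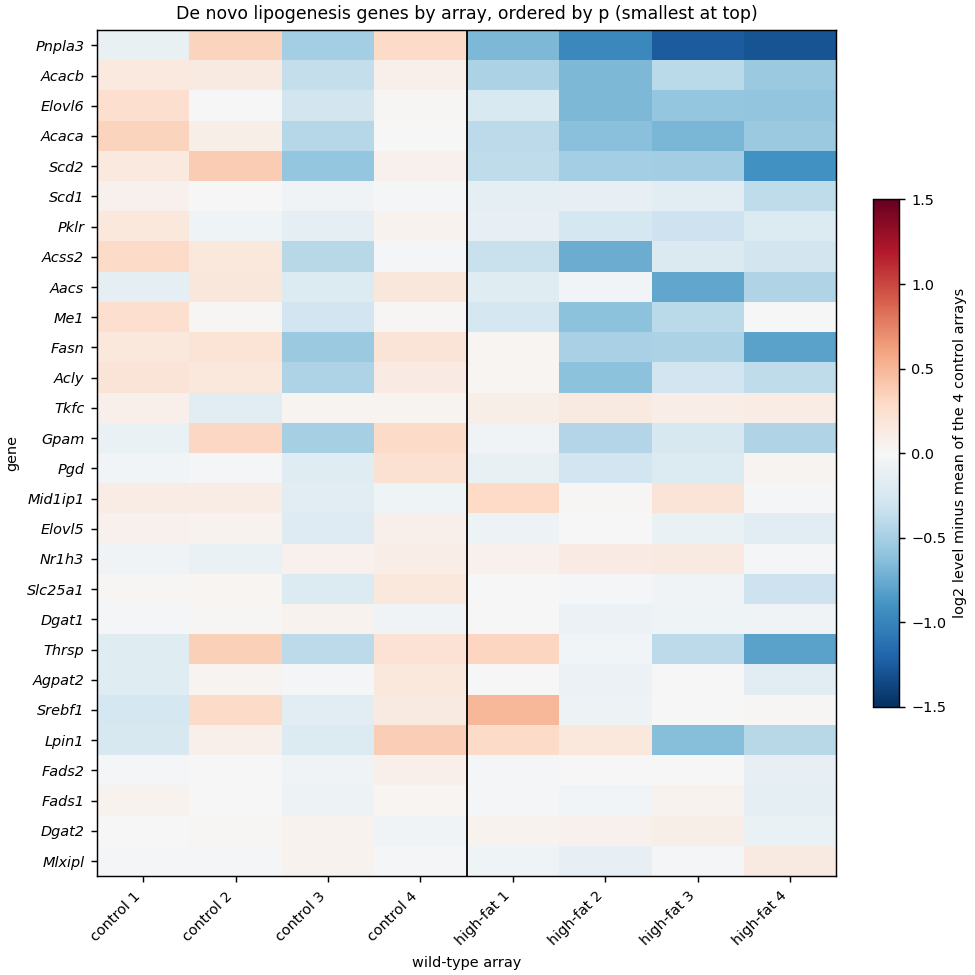
Log2 level of the 28 measured de novo lipogenesis genes (rows, ordered by p) on the 8 wild-type arrays (columns), minus the mean of the 4 control arrays, in blue where lower and red where higher. The upper rows are blue on the 4 high-fat arrays, and control 3 is also blue in many of them.

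Low values in control 3 were not limited to fatty acid synthesis. Of the 22 sterol synthesis genes, the mean level was 10.95 on control 3 and at most 11.67 on the other controls, and 11.30 to 11.59 on the high-fat arrays. Hmgcs1, which makes the HMG-CoA used for cholesterol, read 12.04, 12.30, 10.99 and 12.18 on the control arrays against 12.09, 12.29, 12.35 and 11.90 on the high-fat arrays. Over all 8 arrays 14 sterol genes were higher and 8 lower in value, with 0 at an unadjusted p under 0.05 in either direction. Without control 3, 7 were higher and 15 lower. Of the lower ones 6 were at an unadjusted p under 0.05 (27.3% of the list, beside 7.01% of all genes in that fit). After a repeated quantile normalization 10 were higher and 12 lower. The part of this animal in the lipogenesis result was not tested, and the values without it are those given above.

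Other lipid genes divided. Fabp5, which encodes a fatty acid binding protein, had the most negative difference of all genes. It read 12.28, 12.00, 10.47 and 12.21 on the control arrays against 10.05, 10.90, 9.74 and 8.99 on the high-fat arrays. Control 3 lay below high-fat 2, so the groups overlapped. The difference was -1.82 (SE 0.44, adjusted p = 0.184), and -2.25 (adjusted p = 0.0374) without control 3. In heterozygotes Fabp5 fell by 2.67 (SE 0.28, adjusted p = 0.00899). The intestinal-type binding protein gene Fabp2 was higher in value (0.48, SE 0.14), as was the adipocyte-type gene Fabp4 (0.17, SE 0.07). Of 17 genes of fatty acid uptake and binding 9 were higher and 8 lower.

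Among 22 genes of lipid droplets and lipases, Fitm1, which promotes droplet formation, was higher (0.57, SE 0.14) and Plin4 (-0.29, SE 0.07) and Plin5 (-0.23, SE 0.09) of the perilipins lower in value. Of 35 genes of fatty acid oxidation and targets of Ppara 23 were higher and 12 lower, and this balance turned to 16 and 19 after a repeated quantile normalization and to 13 and 22 without control 2. Cpt1a, the carnitine palmitoyltransferase that admits fatty acids to mitochondria, differed by 0.06 (SE 0.06). Pdk4, a kinase that shuts off pyruvate oxidation and is induced by fasting, read 9.37, 9.63, 9.77 and 10.36 on the control arrays against 9.13, 8.82, 9.19 and 8.81 on the high-fat arrays. Its arrays did not overlap, and the difference was -0.79 (SE 0.18, adjusted p = 0.16).

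Genes of gluconeogenesis and of the insulin response had no common direction, with 12 of 24 higher and 12 lower in value. Igfbp1, a secreted binding protein of insulin-like growth factors, read 10.41, 11.07, 11.25 and 11.39 on the control arrays against 10.62, 9.84, 9.85 and 9.93 on the high-fat arrays (-0.97, SE 0.22, adjusted p = 0.16). Control 1 lay below high-fat 1, and the other arrays did not overlap. Igfbp2 differed by -0.34 (SE 0.08), and Sik1, a kinase that restrains gluconeogenic transcription, by -0.46 (SE 0.15). The gluconeogenic enzyme genes G6pc (-0.22, SE 0.13) and Pck1 (0.07, SE 0.14) had smaller differences relative to their spread. The labels do not state the feeding state at sampling.

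The glycine cleavage and one-carbon list held the called gene Amt and leaned the same way as it. Of 22 members 18 were higher in value, with a median of 0.17, or 0.10 without control 4. Of the 22, 8 were higher (36.4%, beside 6.28% of all genes) and 0 lower at an unadjusted p under 0.05. The count of 8 fell to 5 without high-fat 1. Shmt2, the mitochondrial enzyme that interconverts serine and glycine, read 11.61, 11.74, 11.77 and 11.61 on the control arrays against 11.97, 11.88, 11.93 and 11.82 on the high-fat arrays (0.22, SE 0.06). Gldc, the decarboxylase that opens glycine cleavage and is the rate-limiting member, was higher in value by 0.37 (SE 0.14), and Mthfd1 by 0.21 (SE 0.07). Nnmt, which consumes methyl groups to methylate nicotinamide, read 11.34, 11.56, 12.02 and 11.19 against 12.37, 11.68, 12.49 and 12.32 (0.69, SE 0.20), with high-fat 2 below control 3. Mat1a, which makes the methyl donor S-adenosylmethionine, differed by 0.03 (SE 0.04).

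The acute phase list holds mostly genes of proteins that hepatocytes secrete during inflammation, and its members leaned higher. Of 26 members 18 were higher in value, with a median of 0.08, and 7 were higher at an unadjusted p under 0.05 while 0 were lower, or 26.9% beside 6.28% of all genes. Lcn2, an iron-scavenging secreted protein, read 10.15, 10.27, 10.01 and 9.95 on the control arrays against 10.66, 10.49, 11.31 and 10.82 on the high-fat arrays (0.72, SE 0.15, adjusted p = 0.143). The serum amyloid gene Saa1 read 6.93, 7.27, 6.34 and 6.84 against 7.69, 7.47, 8.10 and 7.55 (0.86, SE 0.18, adjusted p = 0.151). Both genes were higher on every high-fat array than on any control array, and high-fat 3 was the highest for each. Saa4 (0.40, SE 0.09) and the metalloreductase gene Steap4 (0.37, SE 0.07) did not overlap either, and without control 3 Saa4 was called at a difference of 0.50 (adjusted p = 0.0103). Orm3, an orosomucoid, spread more (0.99, SE 0.29), and its arrays overlapped. The fibrinogen chain gene Fgb, at 13.55 to 13.67 on all 8 arrays, differed by -0.04 (SE 0.05).

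Bile acid genes were more often higher than lower in value. Cyp7b1, of the alternative pathway of bile acid synthesis, read 10.45, 10.45, 10.54 and 10.17 on the control arrays against 10.99, 11.08, 10.99 and 10.47 on the high-fat arrays (0.48, SE 0.13), with high-fat 4 among the controls. Baat, which conjugates bile acids (0.27, SE 0.09), and Acox2 (0.22, SE 0.06) were higher in value, and Cyp7a1, which limits the classical pathway, differed by 0.32 (SE 0.19). Of 23 members 16 were higher and 7 lower, or 13 and 10 after a repeated quantile normalization.

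Among 33 cytochrome P450 genes of families 1 to 3, 27 were higher and 6 lower in value, with a median of 0.08, or 0.04 without control 4. At an unadjusted p under 0.05, 7 were higher (21.2%, beside 6.28% of all genes) and 2 lower (6.06%, beside 6.75%), with 0 higher without control 4, 3 without high-fat 4, 4 without control 1, high-fat 1, high-fat 2 or high-fat 3, and 13 without control 3. Cyp3a16, a female-biased member, was higher in value by 0.85 (SE 0.31) and Cyp2b10, the main target of the receptor CAR, by 0.58 (SE 0.22). Of 15 female-biased liver genes 12 were higher, with a median of 0.17 that was 0.06 without high-fat 4. Among them Cux2, a female-specific repressor, read 10.02, 9.49, 9.93 and 9.26 against 9.94, 10.15, 10.42 and 10.44 (0.57, SE 0.17). Cyp2b13 differed by 0.27 (SE 0.11). Ppp1r3g, which encodes a glycogen-targeting subunit of protein phosphatase 1, went the other way, at 9.39, 10.14, 10.27 and 10.74 against 10.07, 8.56, 8.86 and 8.97 (-1.02, SE 0.33), with high-fat 1 above control 1. Of 17 male-biased genes 7 were higher and 10 lower in value. At an unadjusted p under 0.05, 3 were higher and 3 lower (17.6% each, beside 6.28% and 6.75% of all genes).

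Sulfotransferase and organic anion transporter genes included 3 of 15 (20%) that were higher with arrays that did not overlap, beside 3.51% of all genes. These were the sulfotransferase gene Sult5a1 (0.69, SE 0.15), the anion transporter gene Slc22a7 (0.54, SE 0.14) and Slco2b1 (0.23, SE 0.06). The list as a whole had no common direction, with 9 members higher and 6 lower in value and a median of 0.02. Its most negative difference was -1.05, in a member whose arrays overlapped. The efflux pump gene Abcc3, a target of Nrf2, read 11.84, 11.91, 11.92 and 11.71 against 12.11, 12.18, 12.39 and 12.45 (0.43, SE 0.08, adjusted p = 0.141). The carboxylesterase gene Ces1b was higher in value by 0.67 (SE 0.15), and by 0.83 without control 3, where it was called (adjusted p = 0.0103).

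Markers of lymphocytes were lower in value on the high-fat diet. Of 30 measured markers of B cells, T cells and NK cells 23 were lower, with a median of -0.10, and 12 were lower at an unadjusted p under 0.05 while 0 were higher. That is 40% of the list beside 6.75% of all genes. The 4 high-fat arrays lay below the 4 control arrays for 9 of the 30, beside 5% of all genes. The mean level of the 30 markers was 7.55 to 7.60 on the control arrays and 7.43 to 7.46 on the high-fat arrays, so these means did not overlap. In a bulk sample fewer cells of a type and less RNA per cell cannot be told apart. Over the genes dimmer than the median gene the median difference was -0.039.

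Both components of the B cell receptor that signal, Cd79a and Cd79b, were among them. Cd79a read 7.21, 7.11, 6.81 and 7.07 on the control arrays against 6.64, 6.37, 6.61 and 6.70 on the high-fat arrays (-0.47, SE 0.09, adjusted p = 0.141). Cd79b read 8.65, 8.60, 8.53 and 8.57 against 8.32, 8.28, 8.36 and 8.34 (-0.26, SE 0.05, adjusted p = 0.118). The arrays of the diets did not overlap for either, and high-fat 2 was the lowest for both. Without control 3 the difference of Cd79a was -0.55 and was called (adjusted p = 0.0301). The lymph node homing receptor gene Ccr7 (-0.19, SE 0.04), the interleukin 7 receptor gene Il7r (-0.31, SE 0.07) and the T cell receptor component genes Cd3g (-0.30, SE 0.08) and Cd3e (-0.19, SE 0.05) were lower without overlap as well. Cd4 (0.07, SE 0.05) and Cd8a (-0.06, SE 0.05), which mark the main T cell classes, overlapped.

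Class II genes load peptides for display to T cells. All 10 genes of class II antigen presentation had lower values, their median being -0.15, and after a repeated quantile normalization 9 were. Of them 4 (40%, beside 6.75% of all genes) were lower at an unadjusted p under 0.05, a count that was 0 without high-fat 2, 2 without control 3 and 2 without control 4, and 6 without control 1. Cd74, the invariant chain that guides class II molecules, read 10.45, 10.61, 10.56 and 10.71 against 10.51, 10.24, 10.41 and 10.37 (-0.20, SE 0.07). Of 35 macrophage and Kupffer cell markers 28 were lower, with a median of -0.04 that ran from -0.11 without high-fat 4 to -0.01 without high-fat 2. Markers lower at an unadjusted p under 0.05 numbered 2 (5.71%, beside 6.75% of all genes), or 11 without high-fat 4 and 4 without control 3. These 2 were the tetraspanin gene Cd9 (-0.68, SE 0.14), which hepatocytes may also express, and Itgam (-0.18, SE 0.05). Cd9 was called without control 3 (adjusted p = 0.0418). The Kupffer cell genes Adgre1 (0.09, SE 0.20) and Timd4 (-0.17, SE 0.08) overlapped, with high-fat 4 the highest array for Adgre1 at 10.54.

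Of 29 sinusoidal endothelial markers 27 had lower values, and the median was -0.09, or -0.04 without high-fat 3. Of the 29, 5 were lower at an unadjusted p under 0.05 (17.2%, beside 6.75% of all genes), a count that was 3 without control 4, 3 without high-fat 2, 2 without high-fat 3 and 8 without high-fat 4. Cdh5, the cadherin of endothelial junctions, read 10.53, 10.54, 10.54 and 10.61 on the control arrays against 10.42, 10.31, 10.28 and 10.40 on the high-fat arrays (-0.20, SE 0.05). Markers of stellate cells and matrix gave little difference, with a median of -0.02 over 38 genes. The collagen gene Col1a1, a marker of fibrosis, read 9.66, 9.70, 9.39 and 9.64 against 9.58, 9.47, 9.63 and 9.58 (-0.03, SE 0.07), and Acta2, which marks activated stellate cells, differed by -0.07 (SE 0.10). Tgfb1 was lower without overlap (-0.21, SE 0.07), as were Mmp14 (-0.29, SE 0.07) and Timp1 (-0.13, SE 0.04). These were the only 3 of the 38 to be so, and 5% of all genes were. At an unadjusted p under 0.05, 4 of the 38 were lower (10.5%, beside 6.75% of all genes) and 0 higher.

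Interferon-inducible genes were mixed, with 17 of 28 higher and 11 lower. The GTPase gene Iigp1 was higher without overlap (0.32, SE 0.08), as was Irf1 (0.35, SE 0.10), while Ifit2 was lower in value (-0.25, SE 0.08). Markers of other tissues were lower in value for 8 of 10 genes of pancreas, 12 of 14 of gallbladder and gut, 9 of 10 of skeletal muscle, 5 of 8 of adipose tissue and 3 of 5 of erythroid cells. After a repeated quantile normalization these were 7, 12, 6, 2 and 2. Over all genes 56% were lower in value, or 51.7% after that normalization.

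Most genes of the cell cycle list, which holds genes of replication and of mitosis, were lower in value. Of 48 cell cycle genes 42 were lower, with a median of -0.10, and at an unadjusted p under 0.05 there were 14 lower and 2 higher, or 29.2% lower beside 6.75% of all genes. The count of 14 was 9 without control 1, 9 without control 4 and 23 without control 3. Ccnb2, a cyclin of mitotic entry, read 8.60, 8.51, 8.24 and 8.98 on the control arrays against 8.18, 8.13, 8.10 and 7.94 on the high-fat arrays (-0.49, SE 0.13, adjusted p = 0.205). Its partner kinase gene Cdk1 read 8.77, 8.55, 8.30 and 8.84 against 8.31, 8.24, 8.35 and 8.19 (-0.35, SE 0.10, adjusted p = 0.239). Control 4 was the highest array for both and control 3 the lowest control. Ccna2 (-0.46, SE 0.12), the proliferation marker Mki67 (-0.47, SE 0.15), Anln (-0.25, SE 0.06) and Prc1 (-0.19, SE 0.05) were also lower in value, and Ccna2 was called without control 3 (adjusted p = 0.0301). The replication genes Tk1 (0.24, SE 0.07) and Gins1 (0.26, SE 0.10) were the 2 that were higher, named after their values were seen, and the replication clamp gene Pcna differed by 0.03 (SE 0.06). Ccnd1, the cyclin that starts the cycle, differed by -0.35 (SE 0.09) with arrays that did not overlap.

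The bases before the start sites of the cell cycle and lipogenesis genes were searched for motifs known from such genes, on both strands of the 250 bases upstream. Sequences are those of RefSeq, assembly GRCm38.p6, which covered 37 of the 48 genes and 15614 of all genes tested. The letters CCAAT, the box bound by the factor NF-Y, occurred in 27 of the 37 (73%) and in 38.8% of all genes, and TTTGAA, a form of the cell cycle homology region (CHR), in 10 (27%) and 15.7%. Among 23 covered lipogenesis genes, the sterol response element TCACNCCAC occurred in 1 (4.35%, against 1.2% of all genes) and the E-box CACGTG in 3 (13%, against 8.11%). CCAAT occurred in 14 of these 23 (60.9%) as well, and TTTGAA in 3 (13%). A match describes letters only, and the list was not tested against other genes. The 3 upstream regions below belong to the cyclin and kinase pair and to Pnpla3, and are written 5′ to 3′ on the strand of the gene. Matches of CCAAT on either strand are in capitals. Those of TTTGAA are in capitals for Ccnb2 and Cdk1 but not for Pnpla3. They are Ccnb2 at chr9:70421555-70421804 (minus strand), Cdk1 at chr10:69352913-69353162 (minus strand) and Pnpla3 at chr15:84167566-84167815 (plus strand).
Ccnb2: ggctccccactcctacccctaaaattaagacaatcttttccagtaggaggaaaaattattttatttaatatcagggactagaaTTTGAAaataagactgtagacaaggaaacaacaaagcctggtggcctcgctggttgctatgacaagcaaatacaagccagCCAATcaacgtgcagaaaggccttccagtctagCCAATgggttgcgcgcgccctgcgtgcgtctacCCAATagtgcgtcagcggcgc
Cdk1: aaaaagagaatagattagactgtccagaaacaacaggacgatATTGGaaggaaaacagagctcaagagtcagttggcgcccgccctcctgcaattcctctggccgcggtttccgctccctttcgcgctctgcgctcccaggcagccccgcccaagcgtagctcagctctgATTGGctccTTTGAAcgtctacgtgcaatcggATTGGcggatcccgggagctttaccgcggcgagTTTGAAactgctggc
Pnpla3: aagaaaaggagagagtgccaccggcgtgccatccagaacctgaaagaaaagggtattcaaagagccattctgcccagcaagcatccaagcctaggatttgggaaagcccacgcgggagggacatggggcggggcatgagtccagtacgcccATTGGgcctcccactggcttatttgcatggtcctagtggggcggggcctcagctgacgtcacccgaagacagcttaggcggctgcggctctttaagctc
The Ccnb2 region held CCAAT 3 times, starting 87, 54 and 21 bases before the start site, with TTTGAA at 167. The Cdk1 region held CCAAT 3 times, at 208, 80 and 48 bases, and TTTGAA at 71 and 15. The Pnpla3 region held CCAAT once, at 99 bases. It also held TTTGAA on the opposite strand, which reads ttcaaa above and is left in lower case.

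Cytosolic ribosomal protein genes were lower in value almost without exception, 53 of 54, by a small amount. Their median was -0.12, and 13 were lower at an unadjusted p under 0.05 (24.1%, beside 6.75% of all genes), a count that ran from 4 without control 4 (7.41%, beside 4.92% of all genes in that fit) to 28 without control 3, with 7 without control 2, 8 without control 1, 7 without high-fat 3, 5 without high-fat 4 and 20 without high-fat 2. Rplp0, of the ribosomal stalk, read 12.88, 12.96, 12.93 and 13.05 on the control arrays against 12.81, 12.77, 12.69 and 12.85 on the high-fat arrays (-0.17, SE 0.06). Rpl37a differed by -0.25 (SE 0.07) without overlap. After a repeated quantile normalization 53 of 54 were lower as well, with a median of -0.16.

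Nuclear genes of the respiratory chain gave the opposite sign, 45 of 63 higher with a median of 0.03, but this turned to 26 of 63 with a median of -0.01 after a repeated quantile normalization, so no direction is given for the list. Ndufv1, which holds the NADH site of complex I, read 11.48, 11.53, 11.58 and 11.49 against 11.69, 11.71, 11.75 and 11.64 (0.18, SE 0.05). Ndufs1 (0.21, SE 0.07) did not overlap either. The fusion genes Opa1 (0.18, SE 0.05) and Mfn2 (0.16, SE 0.05) and Letm1, given above, led the 18 genes of mitochondrial membranes, of which 13 were higher, or 8 after that normalization.

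Hedgehog pathway genes are of interest because the study altered Gli2. Gli1, a transcriptional target that reports pathway activity, read 8.41, 8.42, 8.44 and 8.36 on the control arrays against 8.29, 8.22, 8.29 and 8.25 on the high-fat arrays. The arrays did not overlap, and the difference was small (-0.15, SE 0.05, adjusted p = 0.244). Gli2 itself read 7.58, 7.57, 7.54 and 7.58 against 7.40, 7.54, 7.57 and 7.54 (-0.05, SE 0.05). The ligand gene Ihh differed by -0.13 (SE 0.05) and Evc, of the primary cilium, by -0.17 (SE 0.06). The receptor gene Ptch1, also a target, differed by 0.09 (SE 0.07) and the signal transducer Smo by -0.10 (SE 0.08). Of 23 members 16 were lower and 7 higher, and after a repeated quantile normalization 13 were lower and 10 higher.

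**Figure D3:**
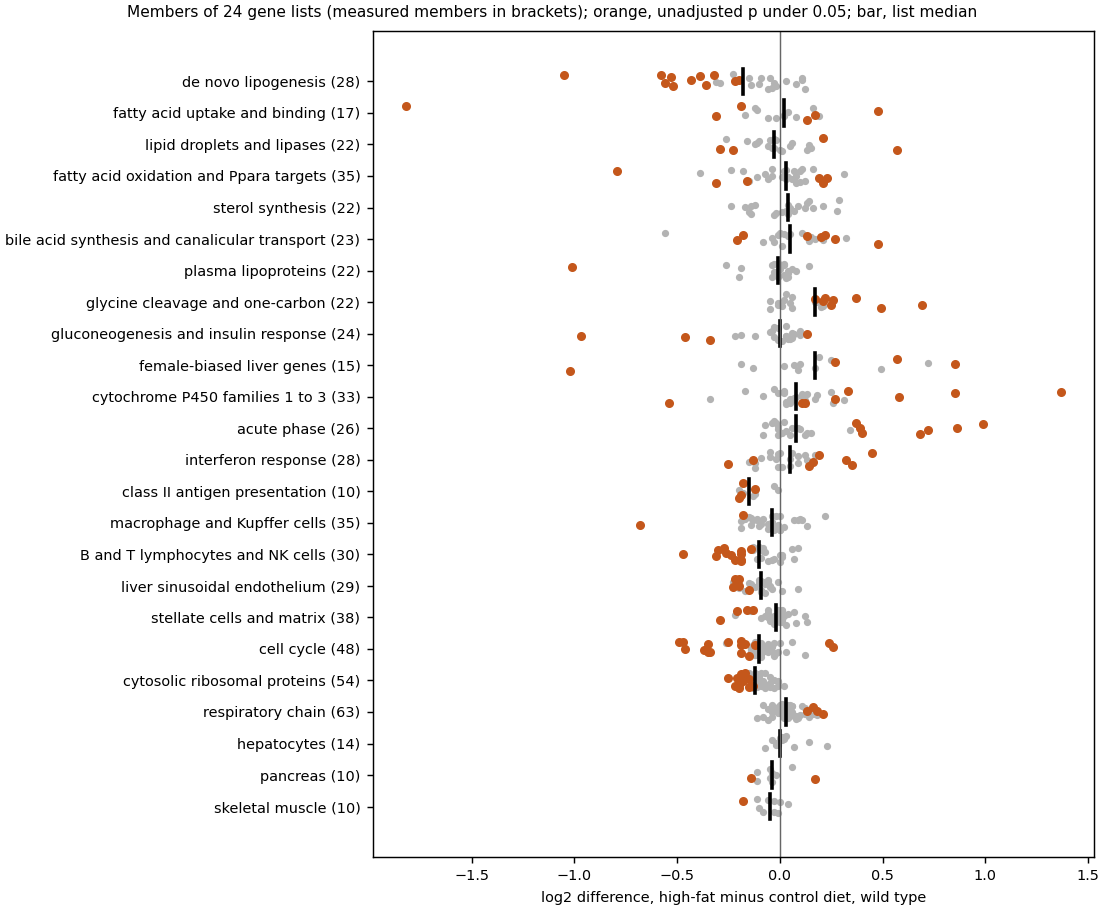
Log2 difference, high-fat minus control diet in wild type (horizontal axis), of each measured member of 24 gene lists (rows), in orange at an unadjusted p under 0.05 and grey otherwise, with the list median as a black bar. Lipogenesis, lymphocyte, cell cycle and ribosomal protein genes lie mostly left of 0, with medians of -0.18, -0.10, -0.10 and -0.12, and glycine and one-carbon genes mostly right of it, with a median of 0.17.

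The heterozygous mice give the same diet contrast in 8 other animals, which share no arrays with the wild-type comparison. Whether RMA was run on all 16 arrays together is not stated, so the 2 sets of values may share a normalization. The diet difference had the same sign in both genotypes for 69.8% of all genes, and for 81.6% of the 2597 genes (13% of all) at an unadjusted p under 0.05 in wild type, beside 68% of the remaining 17341. Without animal 2 of the heterozygous control group, left out as an alternative, the shares were 65% and 75.5%. At an unadjusted p under 0.05 in heterozygotes as well, with the same sign, were 613 of the 2597 (23.6%), where 17.3% of all genes passed that level in heterozygotes in either direction. The heterozygous arrays fitted alone called 2 higher (0.01%) and 5 lower genes (0.0251%). The test of the difference in response, an interaction term over all 16 arrays, called 0 genes, with a lowest adjusted p of 0.24. At an unadjusted p under 0.05 it gave 1621 genes (8.13%), and 4.16% of all genes passed with the more negative response in wild type, or 4.5% without that heterozygous array.

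The genotypes are compared by list as a description. Over all genes the median difference was -0.0139 in wild type and -0.0513 in heterozygotes, or -0.0203 in heterozygotes without control animal 2. The sign was the same in both genotypes for 69.8% of all genes, or 65% without that animal. A list near these values does not stand out from all genes. Ribosomal proteins had medians of -0.12 in wild type and -0.19 in heterozygotes and the same sign for 48 of 54 genes. Acute phase genes had medians of 0.08 and 0.12 and the same sign for 21 of 26. Glycine and one-carbon genes gave 0.17 and 0.16, with the same sign for 16 of 22. Lipogenesis gave -0.18 and -0.05, or -0.12 without the array of heterozygous control 2, with the same sign for 18 of 28. Female-biased genes gave 0.17 and 0.37, or 0.29 in heterozygotes without that array. Lymphocyte markers gave -0.10 and -0.02, and the heterozygote median turned to 0.04 without that array. Of the 30 lymphocyte markers 8 had a more negative response in wild type at an unadjusted interaction p under 0.05, or 14 without it. Macrophage and Kupffer cell markers had a median of -0.04 in wild type and 0.27 in heterozygotes. Of these, 18 of 35 had a more negative response in wild type at an unadjusted interaction p under 0.05, or 17 without heterozygous control 2. Class II genes had medians of -0.15 and 0.33, and cell cycle genes -0.10 and 0.10, with 17 of 48 at that level.

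For single genes, the interaction was -0.71 for the lysosomal macrophage marker Cd68 (SE 0.15, interaction adjusted p = 0.24), with differences of -0.19 in wild type and 0.52 in heterozygotes. It was -0.72 for Cd79a (SE 0.15, interaction adjusted p = 0.24), -0.76 for Ccnb2 (SE 0.19, interaction adjusted p = 0.321) and -1.18 for Sik1 (SE 0.23, interaction adjusted p = 0.24). None of these passed, so a difference in response between genotypes was not shown for any gene. For Pdk4 the interaction was -0.97 (SE 0.28), and for Pnpla3 it was -0.09 (SE 0.31).

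**Figure D4:**
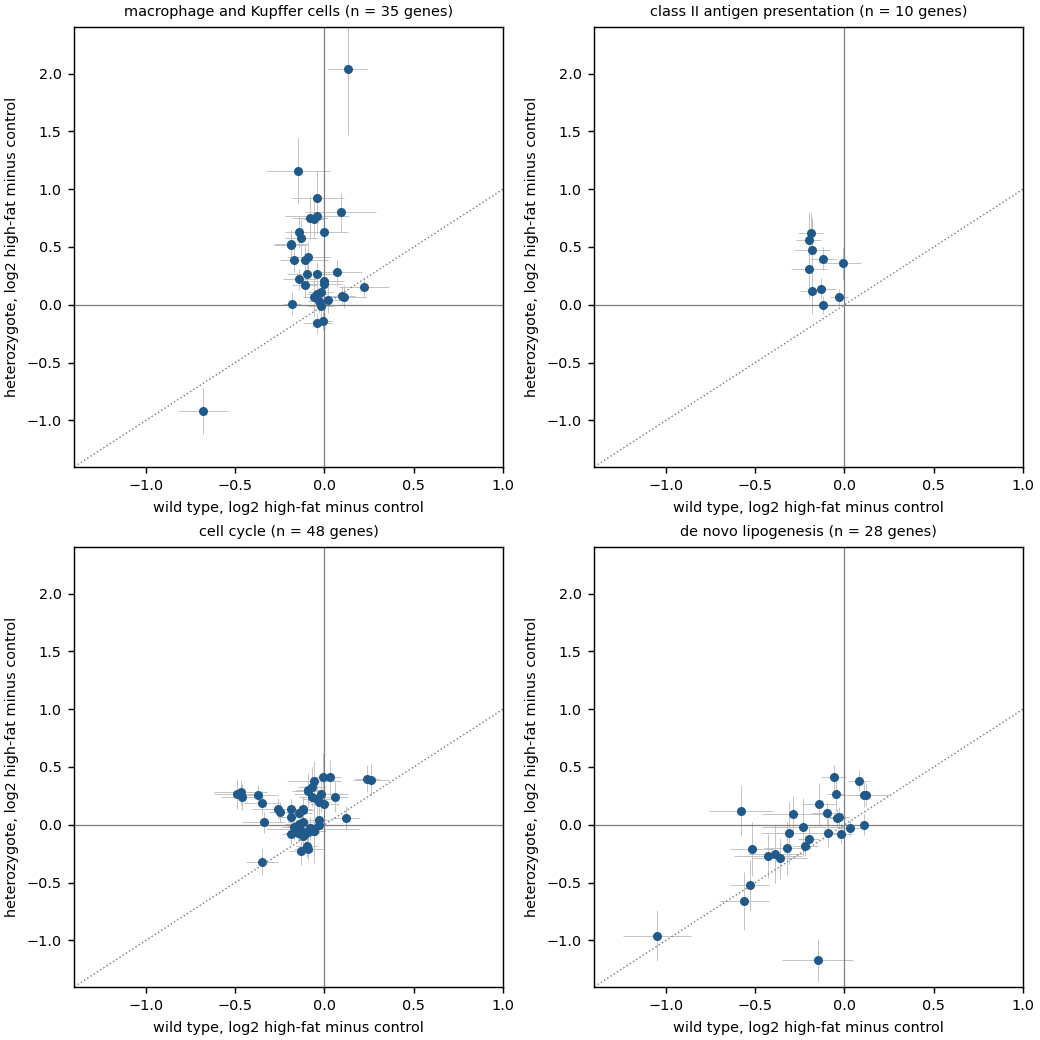
Log2 diet difference in heterozygotes (vertical axes) against that in wild type (horizontal axes) for the members of 4 gene lists, with SE bars from separate fits of 8 arrays each and a dotted line of equality. Macrophage markers lie mostly, and class II markers wholly, above the line, with medians of 0.27 and 0.33 in heterozygotes, and lipogenesis genes lie closer to it.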

How the data were processed

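Per the submitters' processing notes the authors used RMA and Affymetrix Expression Console, and the log2 levels they deposited are used unchanged. No source used here gives versions or RMA settings. Of 35556 probe sets, 21789 carried 1 gene symbol, 1621 several and 12146 none. Where a gene had several probe sets the brightest over the 16 arrays was kept (999 genes), which left 19938 genes. Of their symbols 19856 matched RefSeq, and 82 were kept as the platform gives them.

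The 8 wild-type arrays were fitted on their own in limma 3.58.1 (R 4.3.3), with lmFit, eBayes and two-sided tests adjusted by Benjamini-Hochberg over all genes. The fit was tested on simulated data. Arrays have no read depth, and their number (4 per group) limits the precision. The p-values measure the spread between these arrays, each of 1 animal. Gene lists were described by counts and medians, with no set test.

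Named were all called genes; the 12 higher and 12 lower genes of smallest p without overlap; the 8 higher and 8 lower of largest difference at an unadjusted p under 0.05; the 4 members of smallest p of a list and its rate-limiting or defining members; and Gli1, Gli2, Pltp and Amt. Not every gene of this rule is printed. Members and lists were chosen with earlier results of these data known. Alternatives were other fits, normalizations, filters and probe set rules, a random block for the title number and leaving out each array.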

Additional observations from a re-analysis of the deposited data

Results flagged for a closer look

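Among 246 groups of 4 arrays of the named genes, 17 held 1 array far from the other 3 by Dixon's test at the 95% level, and chance alone flags about 5% of groups. Control 3 was that array 7 times. It was low for Acacb (11.22), Fasn (12.48), Fabp5 (10.47), Fabp4 (8.24) and Smo (8.93), and high for Grid1 (8.47) and Mlxipl (12.17). High-fat 4 was low for Cyp7b1 (10.47) and Dgat2 (13.31) and high for Ndufs1 (11.03). High-fat 1 was high for Igfbp1 (10.62) and Srebf1 (12.08), high-fat 2 was low for Gabbr2 (11.16) and Gldc (10.88), and high-fat 3 was high for Irf1 (10.48). Control 4 was high for Cdh5 (10.61) and low for Pcna (10.71).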

How the results depend on the processing

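The counts of called genes, 5 higher and 1 lower, moved with most settings. They were 0 and 0 with all 16 arrays in 1 fit, 1 and 2 with all but heterozygous control 2, 2 and 1 with a variance trend, 10 and 4 with a robust trend, 27 and 18 with array weights, 0 and 1 after a repeated quantile normalization, and 0 and 1 over every probe set. Leaving out 1 array gave 0 to 27 higher and 1 to 28 lower calls, both maxima without control 3. At an unadjusted p under 0.05 the counts were 704 higher and 578 lower with all 16 arrays and 1838 and 794 with arrays centred on their medians, and 968 to 1518 higher and 980 to 1414 lower with 1 array left out. The cause of these moves was not tested. No paired analysis was possible because replicates were numbered by record order, which links no animal to another. A random block for the number in the title (correlation -0.0647) gave 5 genes called higher and 1 lower. Over 2213 alternative values of the 123 named genes, 19 turned in sign, 52 lost a call and 51 gained one. The turned values outside the left-out arrays were Adgre1 at -0.05 with array weights, Alb at 0.00 after quantile normalization and 0.02 after centring, Eif2s3y at 0.01 after both, Mlxipl at 0.01 after centring and Pcna at -0.01 after quantile normalization. With 1 array left out the differences ran from -0.12 to 0.01 for Acta2, -0.14 to 0.24 for Adgre1, -0.03 to 0.02 for Alb, -0.04 to 0.01 for Eif2s3y, -0.02 to 0.42 for Hmgcs1, -0.07 to 0.02 for Mlxipl, -0.09 to 0.17 for Pck1, 0.00 to 0.06 for Pcna and -0.02 to 0.20 for Srebf1. Of 451 alternative list medians 14 moved by more than the spread of the list's mean level between arrays.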
